A study of Homo sapiens with 6 samples.

Results

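Shorter copies of LTR12C, those spanning fewer than 1500 bp, made up 299 of the 579 LTR12C elements in the list of LTRs with at least 1 ChIP-seq peak after CRISPR activation (CRISPRa). They were selected on length alone, taken as the end minus the start of the deposited interval in the GRCh37/hg19 genome, so the 3 peak calls described here took no part in the choice. Of these 299 elements, 8 were under 1000 bp and 291 were of 1000 bp or more. The other 280 listed LTR12Cs were of 1500 bp or more, and the whole list held 585 LTR elements, 6 of them LTR12E. At the length limit, the 3 longest of the shorter elements (1 of 1498 bp and a pair 1 bp longer) and the 3 shortest of the longer class (1501, 1502 and 1505 bp) carried unlike sets of peaks, from H3K27ac alone to all 3 peaks.

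The cells were wild-type HEK293T, a line derived from human embryonic kidney, transfected with 500 ng of a plasmid for dCas9-SunTag-VP64 and harvested after 3 days. In this system a nuclease-dead Cas9 carries an HA tag and a SunTag peptide array, and the array recruits the VP64 activation domain. The cells received either gRNA #15 against LTR12C or a non-targeting gRNA, and chromatin was precipitated with antibodies to the HA tag, H3K4me3 or H3K27ac, which gives 6 libraries with 1 library for each antibody and gRNA. The peak columns of the list were read as those of the 3 libraries made with the LTR12C-targeting gRNA, and the cells of each library came from a transfected culture that was not sorted for the construct. The heading of the dCas9-HA column adds the word upregulated, and the paper describes dCas9-HA binding among LTRs whose RNA was upregulated. Whether the call was set against the non-targeting library is not given in the sources used here. Each call is yes or no, without a read depth or peak height, so precision is given as a 95% Wilson interval for a share and a 95% Newcombe interval for a difference of 2 shares. These intervals cover counting error only, and no replicate library was at hand to measure the spread of a call between cultures. The listed LTRs were read as those whose RNA was upregulated with the LTR12C-targeting gRNA. An LTR enters the list only with at least 1 peak. Every share below is therefore a share of listed, upregulated elements, and an element without dCas9-HA is there because it had a histone peak.

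LTR12C is the long terminal repeat of the endogenous retrovirus ERV9, and most copies in the human genome are solitary LTRs left after recombination between the LTRs at either end of a provirus. The LTR holds its own promoter, with CCAAT boxes that are bound by NF-Y and GATA motifs in the tandem repeats upstream of the start site. H3K4me3 marks active promoters, and H3K27ac marks active promoters and enhancers. dCas9 binds where a guide pairs with DNA that is followed by an NGG protospacer adjacent motif (PAM), and mismatches close to the PAM are usually tolerated less well than those far from it.

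The guide and its commonest target sequences among the shorter LTR12Cs are shown because the dCas9-HA calls differed with them. Positions are counted from 1 at the 5′ end of the guide, the base of the guide precedes the position, and the base of the element follows it. Capitals in the 4 site sequences mark a mismatch and the PAM. The best site was the unmismatched sequence in 132 elements, the G11A sequence in 56, the G9A sequence in 39 and the C5T sequence in 11, each with GGG as the PAM.
gRNA #15: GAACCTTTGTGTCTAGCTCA
site without mismatch: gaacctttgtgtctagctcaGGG
site G9A: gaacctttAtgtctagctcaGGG
site G11A: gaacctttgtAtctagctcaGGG
site C5T: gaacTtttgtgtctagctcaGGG

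Most of the shorter LTR12Cs were not broken-off ends but reached both ends of the LTR and lacked internal stretches of a longer reference. The reference was a 1670-bp element, chosen among the listed LTR12Cs of 1500 bp or more as sharing the most sequence with the others. Aligned to it, 278 of the 299 reached within 100 bases of both ends, and all 278 had at least 1 internal gap of 30 bases or more. Gaps are largely forced when a copy under 1500 bp spans this reference. The median of reference bases in such gaps was 238 in all shorter and 78.5 in the longer LTR12Cs. Whether bases were lost in the shorter copies or gained in the reference was not tested. The commonest gap, in 110 elements, spanned 238 bases from position 652 to 889 of the reference, which holds the 1st of the 3 gRNA #15 sites of the reference at position 788. Other frequent gaps spanned 43 bases from position 338 in 49 elements, 102 bases from position 1358 in 45 elements and 119 bases from position 652 in 33 elements. The middle of the LTR was therefore thinly covered, with 24.7% of the elements of 1000 bp or more holding reference position 791 against 59.3% of those of 1500 bp or more. In contrast, 95.2% of the elements of 1000 bp or more held position 1121, inside the 3rd site of the reference at position 1117.

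**Figure D1:**
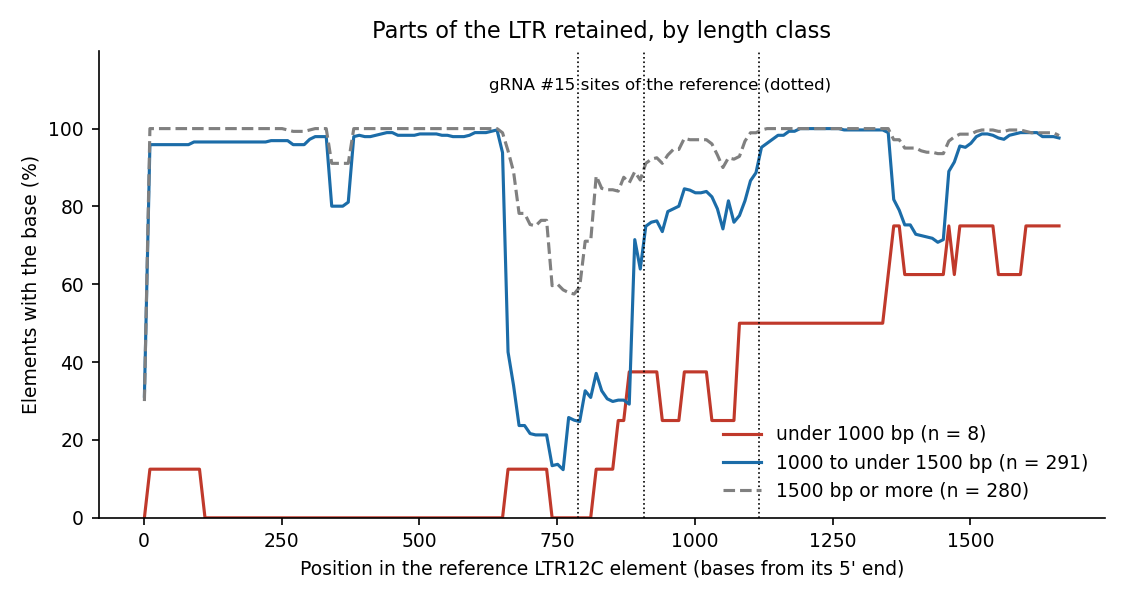
Share of elements (vertical axis, %) that hold each base of the 1670-bp reference LTR12C (horizontal axis, bases from its 5′ end), for the 8 elements under 1000 bp, the 291 of 1000 to under 1500 bp and the 280 of 1500 bp or more. Dotted lines mark the 3 gRNA #15 sites of the reference at positions 788, 907 and 1117, and the shorter elements dip most between positions 652 and 889.

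The shorter class as a whole held fewer target sites. A site was counted where at most 1 base of the 20-base guide was mismatched and NGG followed. At least 2 such sites were found in 137 of 299 shorter LTR12Cs (45.8%) and in 197 of 280 longer ones (70.4%), a difference of -24.5 points (95% interval -32.0 to -16.6). A site with no mismatch went the other way and was present in 134 of 299 (44.8%) against 99 of 280 (35.4%), which is 9.46 points more (interval 1.47 to 17.3). Of the shorter elements, 21 had no site, 141 had 1, 127 had 2 and 10 had 3. Among the shorter elements, those with the commonest gap, from position 652 to 889, had at least 2 sites in 60 of 110 cases (54.5%). This was above the 45.8% of all shorter elements and below the 70.4% of longer ones. With the gap from 652 to 770 it was 12 of 33, and with the gap from 893 to 1052 it was 2 of 21. The gaps from 734 to 811 (18 of 25) and from 784 to 902 (7 of 16) also span the reference site at position 788. The other frequent gaps had at least 2 sites in 19 of 49 (338 to 380), 28 of 45 (1358 to 1459) and 11 of 18 (1063 to 1112). Neighbouring sites within an element lay a median of 210 bases apart (147 neighbouring pairs, range 102 to 373 bases). No site of at most 2 mismatches lay on the opposite strand, and the PAM of the best site was GGG in 286 of the 295 elements with a site within 2 mismatches.

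CCAAT boxes were also fewer in the shorter LTR12Cs, but not next to the guide site. The median number of CCAAT matches in either orientation was 6 in the shorter LTR12Cs (range 0 to 13) and 9 in the longer ones (range 4 to 24). In the 200 bases that start at the best site, however, both classes held a median of 2 CCAAT matches, and CCAAT was present in 294 of 295 shorter and 278 of 279 longer elements. GATAAG, which transcription factors of the GATA family bind, was found in that window in 237 of 295 shorter elements (80.3%) and 201 of 279 longer ones (72.0%), and GGGCGG, the core of the GC box, in 3 and 4 of them. For comparison, windows of the same length at the ends of 35116 RefSeq promoters (GRCh38) held CCAAT in 26.5%, GATAAG in 3.92% and GGGCGG in 39.8%. Motifs were counted on both strands, and a match is a description of the letters only. With and without a dCas9-HA peak, the shorter LTR12Cs held CCAAT in 240 of 241 and 54 of 54 windows and GATAAG in 191 of 241 and 46 of 54.

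dCas9-HA was called at 242 of the 299 shorter LTR12Cs (80.9%, interval 76.1 to 85.0%), against 85.8% of all 579 listed LTR12Cs. The longer class had the call at 255 of 280 elements (91.1%), so the shorter class was lower by 10.1 points (95% interval of the difference -15.7 to -4.5), which is more than counting error. By gap, the call was present at 95 of 110 elements with the commonest gap (86.4%, interval 78.7 to 91.6%), 22 of 33 with the gap from position 652 to 770 (66.7%, interval 49.6 to 80.2%) and 11 of 21 with the gap from 893 to 1052 (52.4%, interval 32.4 to 71.7%). The other frequent gaps had it at 41 of 49 (position 338 to 380), 41 of 45 (1358 to 1459) and 23 of 25 (734 to 811). It was present at 14 of 18 with the gap from 1063 to 1112 and 13 of 16 with that from 784 to 902. Within the shorter class the share did not climb with length. It was 35 of 41 (85.4%) from 1000 to under 1300 bp, 70 of 90 (77.8%) from 1300 to under 1400 bp and 132 of 160 (82.5%) at 1400 bp or more, and the last 2 of these differed by 4.72 points with an interval of -5.18 to 15.6.

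**Figure D2:**
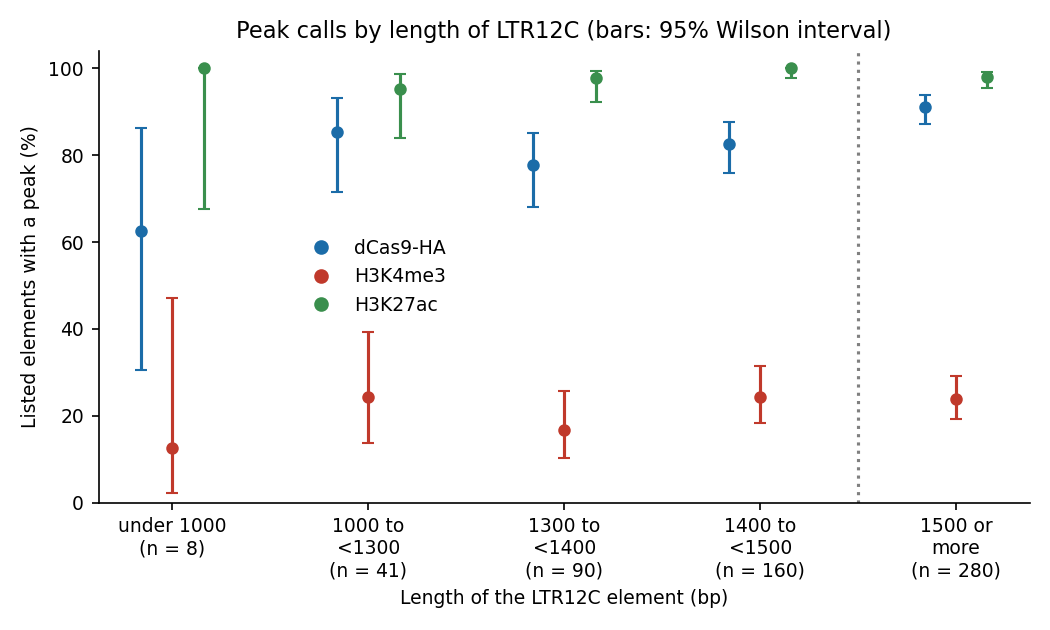
Share of listed LTR12C elements with a dCas9-HA, H3K4me3 or H3K27ac peak (vertical axis, %) in 5 length classes (horizontal axis, bp), with points for shares, bars for 95% Wilson intervals and n for the number of elements. dCas9-HA reached 91.1% at 1500 bp or more and 77.8% to 85.4% in the 3 classes from 1000 to under 1500 bp, while the interval of the 8 shortest elements ran from 30.6 to 86.3%.

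The number of target sites separated the shorter LTR12Cs more clearly than length did. dCas9-HA was called at 7 of 21 elements with no site (33.3%), 103 of 141 with 1 site (73.0%), 122 of 127 with 2 sites (96.1%) and 10 of 10 with 3. Elements with 2 or 3 sites exceeded those with 1 site by 23.3 points (interval 15.2 to 31.4), and those with 1 site exceeded those with none by 39.7 points (interval 17 to 57.2). The longer class had the same order, with 58 of 72 elements (80.6%) at 1 site and 191 of 197 (97%) at 2 or more, a difference of 16.4 points (interval 8.15 to 27.1). At equal site number the length classes could not be told apart beyond counting error. The shorter class differed from the longer one by -21.2 points at no site (7 of 21 against 6 of 11, interval -50.3 to 12.8), by -7.51 points at 1 site (interval -18.4 to 4.99) and by 1.02 points at 2 sites (interval -4.60 to 6.90). The 3 intervals include 0 without showing that the classes are alike.

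The dCas9-HA calls also differed with the mismatches to the guide. Elements whose best site matched the guide fully had the call in 123 of 134 cases (91.8%), those with 1 mismatch in 112 of 144 (77.8%), those with 2 in 6 of 17 (35.3%) and those with no site within 2 mismatches in 1 of 4. The step from 0 to 1 mismatch was 14.0 points (interval 5.59 to 22.3). Among elements with exactly 1 site it was 15.8 points, 47 of 57 against 56 of 84 (interval 0.835 to 28.9). With 2 sites, 70 of 71 elements with a full match and 52 of 56 without one had the call, and the difference of 5.73 points had an interval of -1.79 to 15.6.

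The position of the mismatch also separated the elements with 1 site. G9A elements had dCas9-HA in 26 of 29 cases (89.7%, interval 73.6 to 96.4%), which was not below the 82.5% of elements with a full match. G11A elements had it in 21 of 35 cases (60%, interval 43.6 to 74.4%) and C5T elements in 3 of 9 (33.3%, interval 12.1 to 64.6%). G9A exceeded G11A by 29.7 points (interval 8.07 to 47.4) and C5T by 56.3 points (interval 21.2 to 78.6), whereas G11A and C5T differed by 26.7 points with an interval of -8.63 to 52.4. In the longer class the corresponding counts were 20 of 21 for G9A, 14 of 16 for G11A and 3 of 10 for C5T, so that the gap between G9A and G11A was only 7.74 points there (interval -12.3 to 31.6). With 2 sites, 20 of 21 shorter elements whose best site had G11A and 12 of 12 with G9A carried the call. C5T lies far from the PAM, at the 5′ end of the guide, and G9A and G11A lie in the middle.

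**Figure D3:**
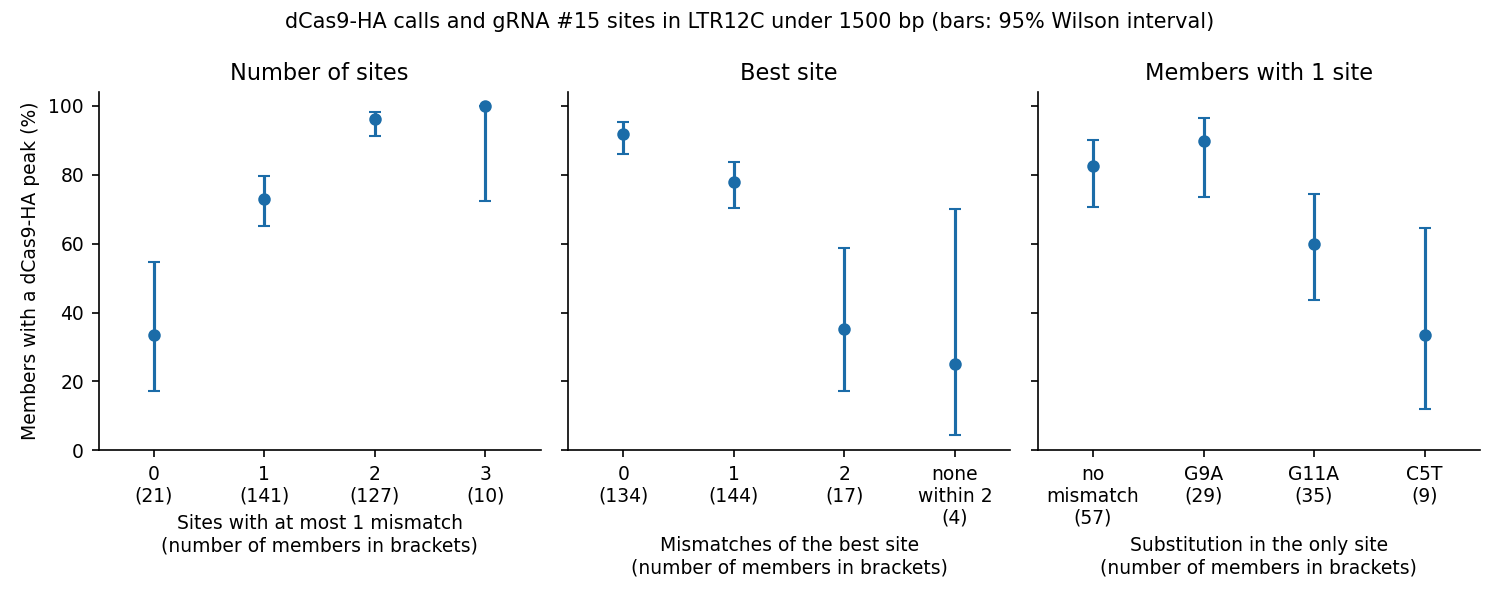
Share of shorter LTR12C elements with a dCas9-HA peak (vertical axis, %) by the number of gRNA #15 sites with at most 1 mismatch, by the mismatches of the best site, and by the substitution in the only site of elements with 1 site. Points are shares, bars are 95% Wilson intervals, and brackets give the number of elements. The share went from 33.3% with no site to 96.1% with 2, and from 89.7% with G9A to 33.3% with C5T.

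The 57 shorter LTR12Cs without a dCas9-HA peak were not devoid of target sequence. Of these, 14 had no site, 38 had 1 and 5 had 2. A site of at most 1 mismatch was present in 43 of 57 (75.4%) against 235 of 242 elements with the call (97.1%), a difference of 21.7 points (interval 11.9 to 34.3), and a full match in 11 of 57 (19.3%) against 123 of 242 (50.8%), a difference of 31.5 points (interval 18 to 41.8). The median length was 1398 bp without and 1406 bp with the call, and the median identity to the reference was 91.6% in both. The ability to place reads was also close, as a median of 86.4% of the 75-base windows of elements without the call, and 86.6% with it, occurred once in the genome. The 57 included 32 intergenic elements, 17 in noncoding genes and 8 in introns of protein-coding genes.

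A few exceptions to the site rule stood at either side. The 5 elements with 2 sites and no dCas9-HA peak, named after their values were seen, lay near PLXNA2, NAB1, SLCO2B1, CRYM and NEIL3, and the element 81784 bases from NEIL3 even had a site without a mismatch. The best sites of the other four carried C4A, G9C, C4T and G11A. Conversely, 7 elements had dCas9-HA without a site of at most 1 mismatch. In 6 of them the best site had 2 mismatches, among them the pair in the KCNN3 region, 1 in an intron of GRIK2 and 1 that overlaps an exon of SEMA4D, which codes for a semaphorin. The 7th, and the only element with the call and no site within 2 mismatches, was the 112-bp fragment described below.

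H3K27ac was called at 295 of the 299 shorter LTR12Cs (98.7%, interval 96.6 to 99.5%), against 98.3% of all listed LTR12Cs. The share was 274 of 280 (97.9%) in the longer class, and the difference of 0.805 points (interval -1.55 to 3.39) was within counting error. It was 239 of 242 with dCas9-HA and 56 of 57 without, but the second of these counts is set largely by the listing rule, since an element without dCas9-HA needs a histone peak to be listed. The call was likewise present in 21 of 21 elements without a gRNA #15 site. Of these, 14 had no dCas9-HA peak, so the listing rule largely sets this count too. Whether these peaks were also present with the non-targeting gRNA was not analysed here.

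The 4 shorter LTR12Cs without H3K27ac were of 1275 to 1387 bp. The 1275-bp element in an intron of DCC, the netrin-1 receptor gene, and the 1287-bp element in an intron of RPH3AL, a rabphilin-like gene, each had dCas9-HA alone and a single G11A site. A 1317-bp element 8863 bases from MUC22, a mucin gene, had dCas9-HA alone and 2 sites, with a full match among them. The 1387-bp element at chr4:27979133-27980519 had H3K4me3 alone and a single G11A site.

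H3K4me3 was much rarer and was called at 65 of the 299 shorter LTR12Cs (21.7%, interval 17.4 to 26.8%), against 22.8% of all listed LTR12Cs. The longer class had 67 of 280 (23.9%), a difference of -2.19 points (interval -9.04 to 4.63). Of the 65 elements, 64 also had H3K27ac. With dCas9-HA the mark was called at 55 of 242 elements (22.7%) and without it at 10 of 57 (17.5%), and the difference of 5.18 points had an interval of -7.59 to 14.8. The order by site number was 3 of 21 with none, 26 of 141 with 1 and 36 of 137 with 2 or 3, and the last 2 differed by 7.84 points (interval -1.97 to 17.5). Elements with a full match and with 1 mismatch differed by 5.93 points (interval -3.86 to 15.7), and G9A and G11A elements with 1 site had the mark in 5 of 29 and 6 of 35 cases. None of these H3K4me3 differences exceeded counting error.

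The combinations of peaks were thus dominated by 184 elements with dCas9-HA and H3K27ac and no H3K4me3 (61.5%). All 3 peaks were called at 55 elements (18.4%), H3K27ac alone at 47 (15.7%), H3K4me3 with H3K27ac at 9, dCas9-HA alone at 3 and H3K4me3 alone at 1. Median lengths were 1426 bp with all 3 peaks, 1402 bp with dCas9-HA and H3K27ac and 1405 bp with H3K27ac alone, and all 55 elements with the full set were of 1071 to 1498 bp.

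**Figure D4:**
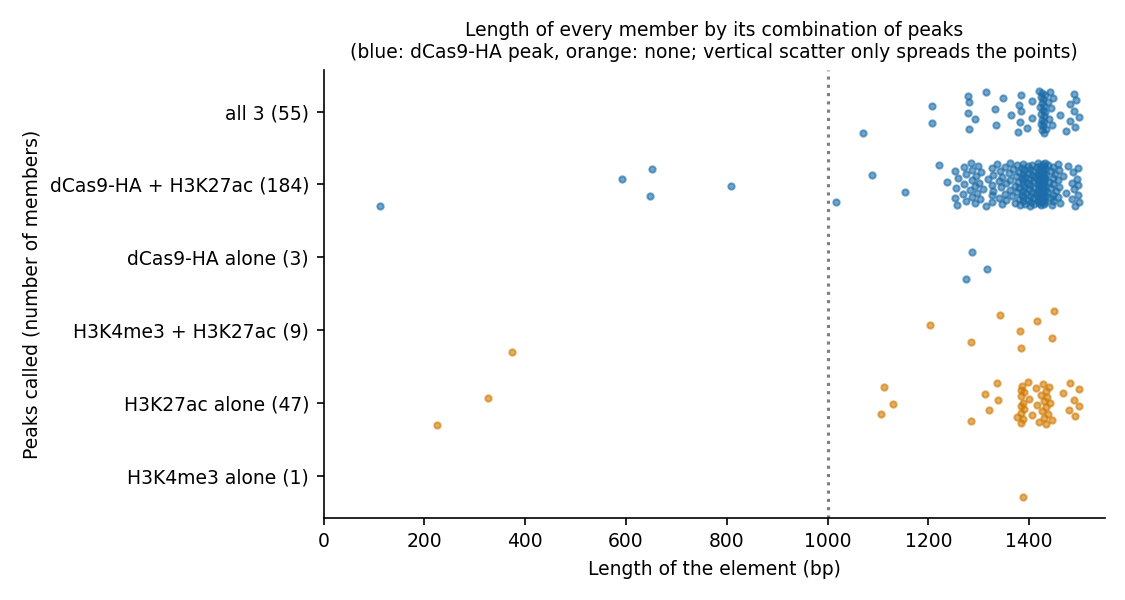
Length in bp (horizontal axis) of each of the 299 shorter LTR12C elements, in rows by the peaks called, with the number of elements in brackets. Blue points had a dCas9-HA peak and orange points had none, the dotted line marks 1000 bp, and the vertical scatter only spreads the points. No element under 1000 bp had all 3 peaks, and the row with dCas9-HA and H3K27ac holds 184 elements.

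ERV9 internal sequence next to the LTR went with the clearest difference in H3K4me3. This was scored when sequence alike to an ERV9 interior of 6061 bases, taken from between listed LTR12Cs, came within 100 bases of the LTR. The mark was called at 7 of 11 elements followed by such sequence (63.6%, interval 35.4 to 84.8%), as in a 5′ LTR, at 0 of 10 preceded by it (a count of 0 leaves room for a share of 30%), and at 58 of 278 with neither (20.9%). The 10 preceded elements include the 112-bp fragment described below, while the 648-bp element that adjoins it was scored as having neither. The excess of followed elements over those with neither was 42.8 points (interval 14.0 to 64.4). In contrast, dCas9-HA was called at 9 of 11, 9 of 10 and 224 of 278 of these elements, and H3K27ac at 11 of 11, 10 of 10 and 274 of 278. The longer class showed the same arrangement, with H3K4me3 at 6 of 8 followed, 0 of 10 preceded and 61 of 262 other elements. The paper already describes this arrangement from its ChIP-seq. It reports H3K4me3 at the 5′ LTR12C but not at the 3′ LTR12C for most transactivated ERV9s.

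Proviruses flanked by shorter LTR12Cs at both ends allowed the comparison within a locus. There were 6 such pairs, with 5807 to 6118 bases between the LTRs. They overlap with the elements counted above, so this is not an independent comparison. The interior used for the search and that of the LUZP2 pair both had 6061 bases, so this pair was most likely matched with itself. H3K27ac was called at both LTRs in all 6 and dCas9-HA at both in 5. H3K4me3 was called at the upstream LTR only in 4 pairs, located in or nearest to ART3, DUSP4, LUZP2 and STPG4, at neither in the pairs near KCNN3 and NPBWR1, and at the downstream LTR alone in 0 pairs. The NPBWR1 pair was also the pair without dCas9-HA at either LTR. Outside these 6 pairs, neighbouring LTRs near PIANP and near BCHE, 6369 and 4342 bases apart, had H3K4me3 at the downstream LTR only. No ERV9 internal sequence was scored between them. DUSP4 codes for a MAP kinase phosphatase and NPBWR1 for a neuropeptide receptor.

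**Figure D5:**
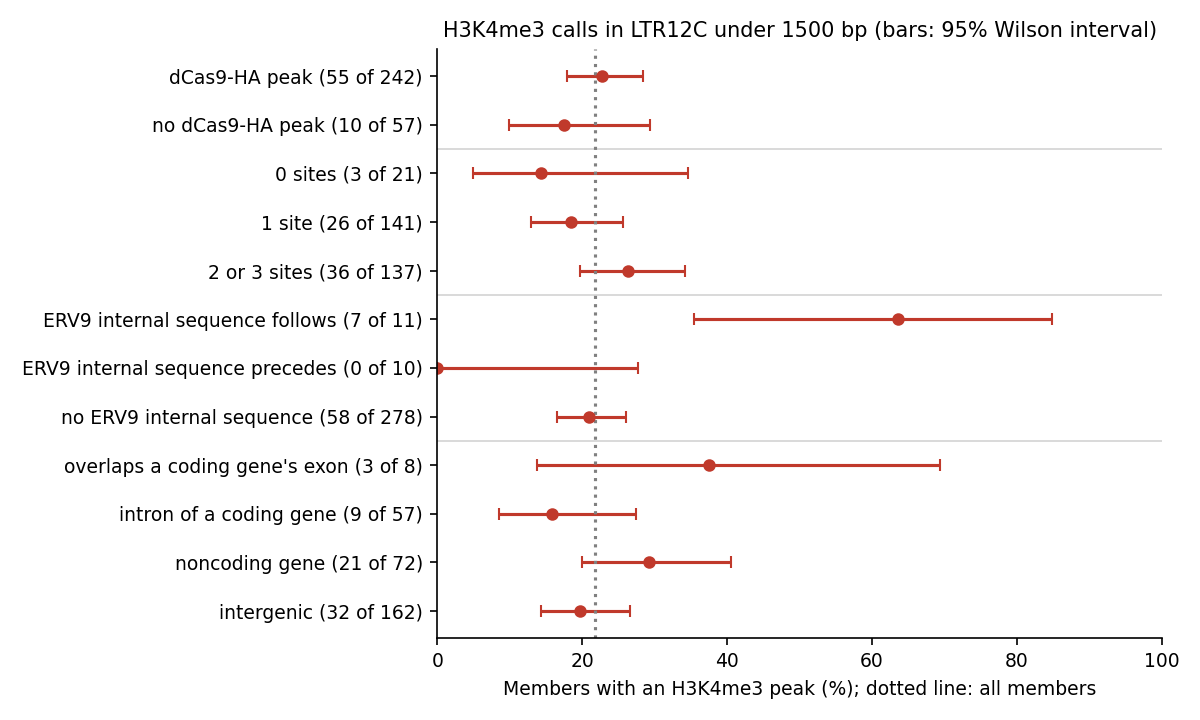
Share of shorter LTR12C elements with an H3K4me3 peak (horizontal axis, %) by dCas9-HA call, number of gRNA #15 sites, adjoining ERV9 internal sequence and gene annotation. Points are shares, bars are 95% Wilson intervals, counts stand in brackets, and the dotted line is the 21.7% of all 299. Elements followed by ERV9 internal sequence stand at 63.6%, and those preceded by it at 0.

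The 10 elements with H3K4me3 but no dCas9-HA peak were of mixed kinds. By site, 7 had at least 1 site of at most 1 mismatch, 2 had sites with 2 mismatches only, and the 373-bp element had none. In noncoding genes lay 7 of the 10, against 17 of all 57 elements without dCas9-HA (29.8%) and 72 of the 299 (24.1%), and that difference was not tested. The 7 include those in HULC, a long noncoding RNA of liver cancer, in LNC-LBCS and in LINC01036. A 1416-bp element with a C5A site lay 906 bases from TNFRSF10B, which codes for a TRAIL death receptor, on the same strand. Others lay nearest to GPR158, NEIL3, RAP2B, COPS7A and AMZ2, at distances from 5941 bases (RAP2B) to 153588 bases (GPR158), and the last was the H3K4me3-only element on chromosome 4.

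The 8 elements under 1000 bp were the exception to the pattern of internal gaps, as 7 of them lacked the 5′ end of the LTR. They ranged from 112 to 809 bp, and a gRNA #15 site of at most 2 mismatches remained in 4. dCas9-HA was called at 5 of 8 (62.5%, interval 30.6 to 86.3%) against 237 of 291 elements of 1000 bp or more (81.4%), H3K4me3 at 1 of 8 against 64 of 291, and H3K27ac at 8 of 8 against 287 of 291. The differences of -18.9, -9.49 and 1.37 points had intervals of -51.1 to 5.36, -21.0 to 25.4 and -31.1 to 3.48, so with 8 elements no difference was detectable.

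All 4 of the truncated elements that kept a site had dCas9-HA and H3K27ac without H3K4me3. These were the 592-bp element 2605 bases from CSF3, the gene for granulocyte colony-stimulating factor, with a full match, the 648-bp element 896 bases from NUDT8, with 2 sites, the 652-bp element 21345 bases from XRCC2, a gene of homologous recombination, with 2 sites of which the best had C5A, and the 809-bp element 6576 bases from EIF2B2, which codes for a subunit of a translation initiation factor, with 3 sites. In the 4 without a site, 3 had no dCas9-HA. These were the 225-bp element nearest to TMTC1 and the 327-bp element nearest to CHRAC1, both with H3K27ac alone, and the 373-bp element in LINC01036, with H3K4me3 and H3K27ac. The 4th was the 112-bp fragment near NUDT8, which holds only the 5′ end of the LTR, from reference position 2 to 103. It overlapped the 648-bp element by 3 bases and shared its calls, so its dCas9-HA peak cannot be told apart from that of its neighbour.

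Loss of the 5′ end was also found in 10 elements of 1000 bp or more. Together, the 17 elements lacking the 5′ end had dCas9-HA in 12 cases (70.6%), H3K4me3 in 2 (11.8%) and H3K27ac in 17, against 226, 63 and 275 of the 278 elements with both ends. The dCas9-HA difference was -10.7 points (interval -34.8 to 6.18) and the H3K4me3 difference -10.9 points (interval -20.9 to 12.1). The H3K4me3-positive pair consisted of the 373-bp element and a 1071-bp element on chromosome X, 26085 bases from PGRMC1. This 1071-bp element lay 56 bases from another listed LTR12C. The 1089-bp element near ACSL5 and the 1112-bp element nearest to SOCS6 lay 0 bases from another. The peaks of these elements lacking the 5′ end therefore cannot be told apart from those of their neighbours.

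By gene annotation, 162 of the shorter LTR12Cs were intergenic, 72 lay in noncoding genes, 57 in introns of protein-coding genes and 8 overlapped an exon of a protein-coding gene. H3K4me3 was called at 32 of 162 (19.8%), 21 of 72 (29.2%), 9 of 57 (15.8%) and 3 of 8 (37.5%) of these. Noncoding genes exceeded introns by 13.4 points (interval -1.43 to 26.8) and intergenic elements by 9.41 points (interval -2.05 to 22.0), and neither was beyond counting error. dCas9-HA was called at 130 of 162, 55 of 72, 49 of 57 and 8 of 8.

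The 8 elements that overlap an exon all had dCas9-HA and H3K27ac. H3K4me3 was added at those in ACSBG1, an acyl-CoA synthetase gene, KCNN2, which codes for a calcium-activated potassium channel, and CGREF1, a gene for an EF-hand protein of growth control, and in each of the 3 the LTR had the strand of the gene and a full match to the guide. The 5 without H3K4me3 overlapped exons of MAP3K7CL, CCDC92, LRRD1, DPEP2 and SEMA4D, and the LTR ran against the gene in the first, the second and DPEP2. Their best sites had T7G in MAP3K7CL, A15G in LRRD1, 2 mismatches (G9C and G11A) in SEMA4D and none in CCDC92 and DPEP2.

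Within 5000 bases of a protein-coding gene, or inside it, lay 97 shorter LTR12Cs, and 17 of them had H3K4me3 (17.5%, interval 11.2 to 26.3%), which is close to the 21.7% of all 299. Of the 55 elements with all 3 peaks, 10 were on the strand of a gene in which they lay or from which they were at most 5000 bases away, a selection made after the values were seen. Besides ACSBG1, KCNN2 and CGREF1, these lay in introns of ZBTB20, a zinc-finger transcription factor gene, MORF4L1, a gene for a chromatin-bound protein, C3orf84, TENM1, a teneurin gene, and ENSG00000170846, 64 bases from PPP1R3A, which codes for a glycogen-targeting subunit of protein phosphatase 1, and 4173 bases from ERGIC2. Of these 10, 8 had a site without a mismatch, and those in MORF4L1 and TENM1 had G11A and G1C. Such a site was present in 134 of all 299 (44.8%) and in 123 of the 242 with dCas9-HA (50.8%). The share of all 299 on the strand of such a gene is not given here. Neither count is therefore read as a trait of these elements. These libraries hold ChIP DNA, so no transcript level of these genes is given here. The paper's RNA-seq shows CGREF1 and ACSBG1 as upregulated genes near an LTR12C that carries both histone marks.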

How the data were processed

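ChIP-seq libraries of HEK293T cells were compared as the authors deposited them, in the form of a list of LTR elements with yes or no peak calls (no numeric unit) for dCas9-HA, H3K4me3 and H3K27ac. Per the labels and the study's methods, reads were aligned with Bowtie2 to hg19 and peaks were called with MACS. The MACS threshold, its control library, the tool versions and the rule that ties a peak to an LTR are not given in the sources used here. Read counts, peak heights and columns for the non-targeting gRNA were not used here. The list had 0 columns without a sample.

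Start positions were 0-based and are given 1-based. Element sequences were read from GRCh37 with pysam 0.24.0 and oriented by shared 15-base words, and gRNA #15 came from the study's gRNA table. Longer stretches of element sequence are not reported here. Alignment to the reference LTR used Biopython 1.88 (match 1, mismatch -1, gap opening -3, gap extension -0.2). The ERV9 internal sequence was a stretch of 6061 bases from the gaps of 4 to 8 kb between paired LTR12Cs (11 alike of 14). It was searched with BLAST 2.17.0 in 3 kb of flank (E-value 1e-10). Genes came from GENCODE 44 lifted to GRCh37. Site search, alignment and intervals were tested on simulated data.

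Elements named were the 3 shortest and 3 longest, those under 1000 bp with H3K4me3, those with H3K4me3 and no dCas9-HA, those without H3K27ac, those overlapping a coding exon, and those with dCas9-HA and no site. Other named elements were picked after their values were seen. The members, groups and lists were chosen with earlier results of these data known. No p-value was computed, since each antibody and gRNA had 1 library and elements of a library are not replicates.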

Additional observations from a re-analysis of the deposited data

How the results depend on the processing

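The shares and differences were recomputed under 59 alternatives over 15 results, and 57 values stayed inside the interval of the reported value. No difference whose interval excluded 0 changed sign. The H3K4me3 difference of elements under 1000 bp from longer ones became -23.2 points among dCas9-HA-positive elements only, because none of the 5 such elements had the mark. The difference in the share with a target site between elements with and without dCas9-HA shrank to 4.85 points when 2 mismatches were allowed, as nearly every LTR12C then counts as having a site. Differences that were within counting error could change sign, as H3K4me3 against the longer class did on autosomes (0.708 points) and H3K27ac with a length limit of 1400 bp (-1.51 points). The alternatives for the number of sites, for G9A against G11A, for ERV9 internal sequence and without the 112-bp fragment were chosen after seeing the data. With 2 or 3 sites against 1 site, dCas9-HA differed by 16.2 points among elements with a full match and by 26.7 points among those with 1 mismatch. No paired analysis was possible because each antibody and gRNA had 1 library and the list gives no column for the non-targeting gRNA.

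The depth behind a call is unknown. Elements without any peak are absent from the list, which was read as holding only LTRs upregulated in RNA. None of the shares therefore describes all LTR12Cs of the genome.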
